A study of Mus musculus with 12 samples.

Results

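Matrix metalloproteinases (Mmp genes), the related ADAMTS proteinases (Adamts genes) and the tissue inhibitors of metalloproteinases (Timp genes) were examined in irradiated primary bone marrow stroma from Crebbp+/-, Ep300+/- and wild-type mice. The genes were chosen by name: every probe set whose single assigned gene symbol is Mmp, Adamts or Timp followed by digits. That rule gave 18 of the 3109 probe sets in the table, for 11 genes: Mmp9, Mmp13 and Mmp19, Adamts4, Adamts5, Adamts9 and Adamts15, and Timp1, Timp2, Timp3 and Timp4. The mouse gene table lists 46 protein-coding genes with such names, and the other 35 were not analysed here. RNA was measured on 12 Affymetrix arrays, 4 for each genotype, and all values are log2 expression levels from GCRMA, a background correction and normalization method for these arrays. The Crebbp+/- and Ep300+/- mice carry 1 mutant copy of the gene for CREB-binding protein or for p300, a pair of related histone acetyltransferases and transcriptional coactivators, and the wild-type mice carry none. Mice of all 3 genotypes were C57BL/6 and 3 to 4 months old, their marrow was cultured for 2 weeks, and the stroma then received 1500 cGy of radiation with a change of medium. The labels call the arrays biological replicates. How the mutant alleles were made, and whether a culture came from 1 mouse or from several, is not given in the sources used here.

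Matrix metalloproteinases are zinc enzymes, mostly secreted as inactive precursors, that cut collagens and other matrix proteins once their propeptide is removed. ADAMTS enzymes are secreted relatives of which several cut the proteoglycans aggrecan and versican, and the TIMP proteins bind the active site of these enzymes and block it. In bone marrow the enzymes come from different cells: gelatinase B (Mmp9) is typical of osteoclasts, macrophages and neutrophils, while collagenase 3 (Mmp13) and the ADAMTS enzymes are typical of osteoblasts, fibroblasts and other stromal cells.

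The table holds only variable probe sets with an appreciable signal: over the 12 arrays, each has an interquartile range of at least 0.5001 and at least 3 arrays at or above 6.64, which is log2(100). A gene could therefore enter through the genotype in which it was high, and a gene that was low or steady in all 3 genotypes is not seen. Of the 18 family probe sets, 12 were at or above that bound on all 12 arrays. Array medians ran between 7.98 and 8.43. Crebbp fell in Crebbp+/- stroma by 0.78 relative to wild-type stroma (limma, adjusted p = 0.0372), and Ep300 was not analysed here. Several arrays stood apart on other genes. Crebbp+/- 4 had a mean endothelial marker level 0.52 above the wild-type mean, and the other 3 arrays of that genotype lay 2.12 to 2.46 above it. Crebbp+/- 3 and Ep300+/- 3 had the highest Tnf levels, 14.38 and 14.36, against at most 12.29 on the other 10 arrays. The Y-linked gene Eif2s3y stood at 2.73 and 2.69 on Crebbp+/- 1 and Crebbp+/- 3 and at 8.41 or above on the other 10 arrays. The labels do not give the sex of the mice. Of cell type markers, the table holds 6 of 16 macrophage, 3 of 11 osteoclast, 6 of 16 fibroblast and 13 of 14 endothelial genes listed, and none of 12 granulocyte genes.

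Of the 11 genes measured, Timp4 was the 1 that passed the test in any comparison. It was lower in Crebbp+/- than in Ep300+/- stroma, with a log2 fold change of -1.96. That was 1 of the 18 probe sets, or 5.56%, where 6.4% of all probe sets passed. Timp4 reached the bound of 6.64 on 3 Ep300+/- and 0 Crebbp+/- arrays, so it entered the table through the genotype in which it was high. The call was lost in 8 of the 12 fits that left out 1 array, under quantile normalization and in the fit of those 2 genotypes alone. It was also lost with the Eif2s3y level as a covariate, where no probe set of the table passed. Adamts4 was higher on all 4 Crebbp+/- arrays than on all 4 wild-type arrays, with mean differences of 1.83 and 0.90 on the log2 scale by its 2 probe sets that did not pass, and 10.4% of all probe sets lay above in that way. Mmp9 was low on 3 Crebbp+/- arrays and high on the fourth array of that genotype, and Timp3 was below every wild-type array on all 4 Ep300+/- arrays by 3 of its 4 probe sets, without passing the test, against 2.16% of all probe sets below in that way.

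In Crebbp+/- stroma against wild-type stroma none of the 18 probe sets passed the test (limma, Benjamini-Hochberg adjusted p under 0.05 over all 3109 probe sets), where 6.18% of all probe sets did. At an unadjusted p under 0.05 there were 3 of the 18, against 26.7% of all probe sets. With replicate number blocked, 4 of the 18 passed, those of Adamts4 (both), Adamts9 and Timp4, against 26.1% of all probe sets. In Ep300+/- stroma against wild-type stroma none of the 18 passed, where 0.0% of all probe sets did, and 3 of the 18 had an unadjusted p under 0.05, against 4.05% of all. They were the Mmp19 probe set and, of Timp3, 1419088_at and 1449334_at, which measure 1 gene and do not count as separate evidence. Blocking added none of the 18 there, against 0.0322% of all. In Crebbp+/- stroma against Ep300+/- stroma 1 of the 18 passed, Timp4, or 5.56%, where 6.4% of all probe sets did and 1.51% did so in the lower direction. At an unadjusted p under 0.05 there were 5 of the 18 in that comparison, against 25.2% of all, and with replicate number blocked 5 passed, against 24.4%. Weights that limma estimates for each array gave 9 of the 18 in Crebbp+/- against wild-type and 11 in Crebbp+/- against Ep300+/- stroma, against 45.8% and 49.3% of all. Leaving out Crebbp+/- 4 and Ep300+/- 3, 2 arrays that stand apart, gave 7 and 6 of the 18 in these comparisons, against 23.9% and 24.9%. The 7 were probe sets of Adamts15, Adamts4, Mmp9 and Timp3, and the 6 of Adamts15, Adamts4, Adamts9 and Mmp9. Several of these measure the same gene. Leaving out Crebbp+/- 3 and Ep300+/- 3 gave 1 and 0, against 4.89% and 3.92%. Both pairs of arrays were chosen after seeing the data. Quantile normalization gave 0 in both, against 6.18% and 6.11%. With the Eif2s3y level as a covariate none of the 18, and none of all probe sets, passed in either comparison (limma), while 379 and 476 of all had an unadjusted p under 0.05. The median log2 fold change over the 18 probe sets was -0.12 in Crebbp+/- against wild-type stroma, -0.31 in Ep300+/- against wild-type stroma and 0.40 in Crebbp+/- against Ep300+/- stroma. Over all 3109 probe sets these medians were 0.24, 0.05 and 0.03. The 3 comparisons share their arrays pairwise, so their values are not independent.

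**Figure D1:**
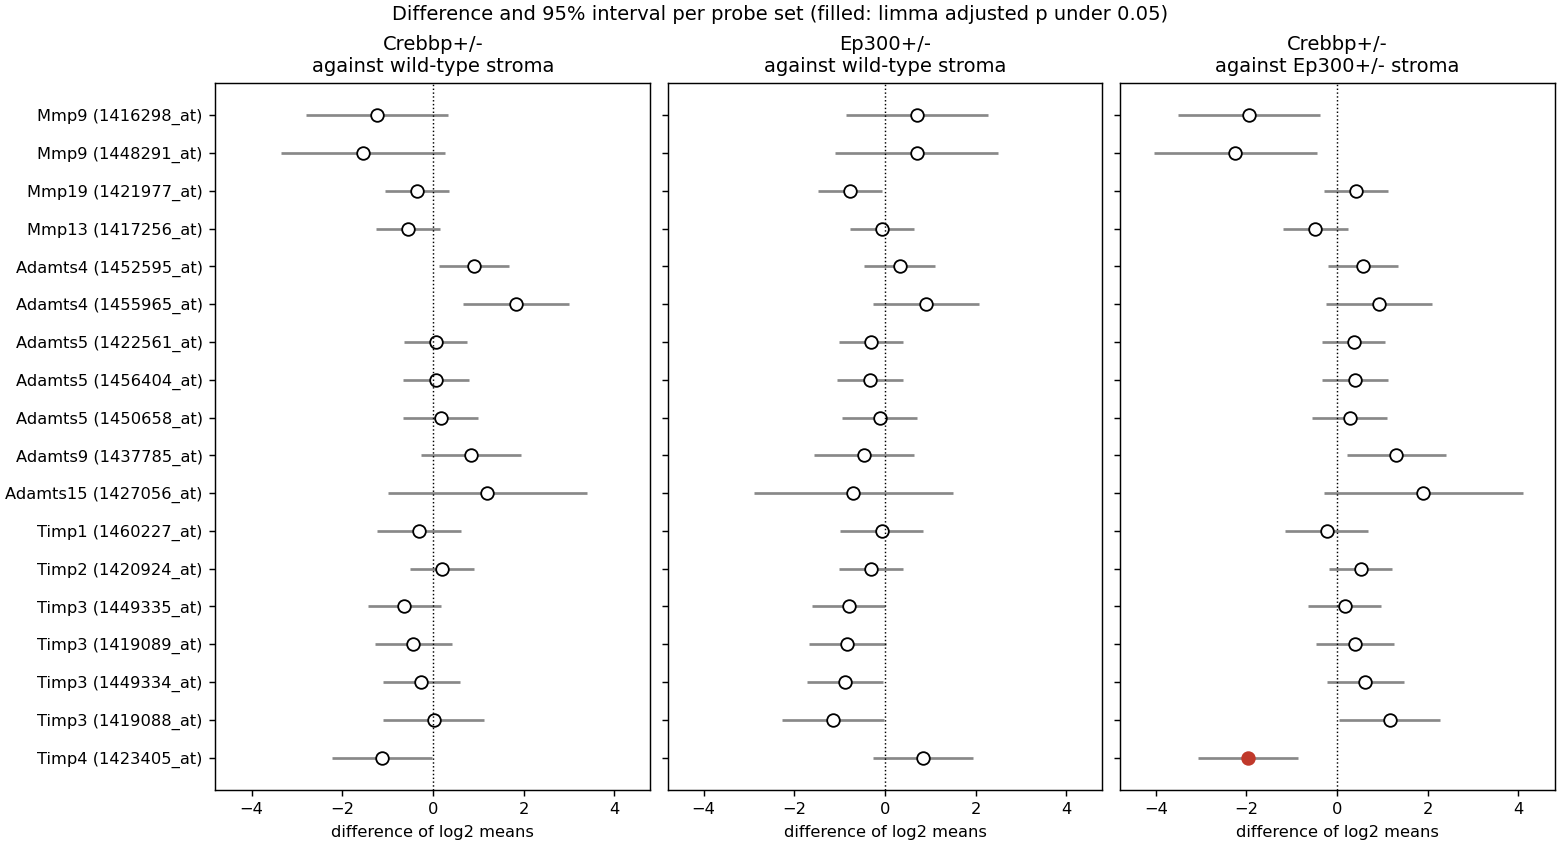
Log2 fold changes of the 18 Mmp, Adamts and Timp probe sets (points, with 95% confidence intervals from limma) in Crebbp+/- against wild-type, Ep300+/- against wild-type and Crebbp+/- against Ep300+/- stroma, 4 arrays per genotype. Timp4 in Crebbp+/- against Ep300+/- stroma, at -1.96, is the value that passed the adjusted test.

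Mmp9, the gelatinase of osteoclasts, macrophages and neutrophils (chromosome 2), was low on 3 of the 4 Crebbp+/- arrays. By probe set 1416298_at its level was 7.63, 6.70, 7.25 and 10.20 on Crebbp+/- arrays 1 to 4, 10.47, 9.96, 8.78 and 10.33 on Ep300+/- arrays 1 to 4, and 10.17, 9.995, 8.11 and 8.44 on wild-type arrays 1 to 4. Crebbp+/- 1, 2 and 3 lay below all 8 other arrays, and Crebbp+/- 4 lay within the range of Ep300+/- stroma and above every wild-type array. The means were 7.95 ± 1.55 in Crebbp+/-, 9.89 ± 0.77 in Ep300+/- and 9.18 ± 1.05 in wild-type stroma (SD, n = 4 each). The difference between Crebbp+/- and wild-type stroma was -1.23 (SE 0.72), or 2.35-fold lower, and did not pass (limma, adjusted p = 0.285; exact permutation test, two-sided p = 0.229). Between Crebbp+/- and Ep300+/- stroma it was -1.94 (SE 0.72), or 3.84-fold lower, and did not pass either (limma, adjusted p = 0.116; exact p = 0.0857). The second probe set, 1448291_at, followed the first with r = 0.995 over the 12 arrays and had differences of -1.55 and -2.24 in the same comparisons. By that probe set Crebbp+/- 4, at 10.05, lay below wild-type 1, at 10.18. The array Crebbp+/- 4 decided these calls. Without it the difference between Crebbp+/- and wild-type stroma was -1.98 by the first probe set and -2.42 by the second, and both passed (limma, adjusted p = 0.0430 and 0.0360). Without it Crebbp+/- against Ep300+/- stroma gave -2.69 and -3.12, and both passed too (limma, adjusted p = 0.0123 and 0.0120). Each array was left out in turn by plan, this array is singled out for its values, and the other 11 such fits gave no Mmp9 call against either genotype. Without that array 12.3% of all probe sets passed against wild-type stroma and 374 of the 3109 against Ep300+/- stroma.

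The macrophage and osteoclast marker lists had no such low means on Crebbp+/- arrays. The mean of the 6 measured macrophage markers, relative to its wild-type mean, lay between -0.27 and 0.67 on the Crebbp+/- arrays, -0.29 and 0.56 on the Ep300+/- arrays, and -0.08 and 0.12 on the wild-type arrays. The mean of the 3 measured osteoclast markers lay between -0.15 and 0.88 on the Crebbp+/- arrays, 0.15 and 0.34 on the Ep300+/- arrays, and -0.38 and 0.37 on the wild-type arrays. These 3 behaved unlike one another. Ctsk, the collagen-cutting cathepsin K of osteoclasts, was at 11.10, 11.18, 10.99 and 12.18 on the Crebbp+/- arrays, 12.09, 11.82, 11.39 and 12.32 on the Ep300+/- arrays, and 11.65, 11.93, 11.52 and 11.56 on the wild-type arrays. It was thus low on the same 3 Crebbp+/- arrays as Mmp9. Acp5, the tartrate-resistant acid phosphatase of osteoclasts, was at 9.24, 8.90, 11.28 and 10.70 on the Crebbp+/- arrays, 10.75, 10.66, 11.45 and 10.85 on the Ep300+/- arrays, and 10.37, 10.52, 8.82 and 9.31 on the wild-type arrays. Itgb3, a subunit of the osteoclast vitronectin receptor also present on endothelial cells and platelets, was 1.99 higher in Crebbp+/- than in Ep300+/- stroma (limma, adjusted p = 0.0127). In RNA from mixed cultures, fewer cells of a type and less RNA per cell cannot be told apart. The part of cell composition in the Mmp9 levels was not tested.

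Mmp19, a metalloproteinase made by macrophages among other cells (chromosome 10, probe set 1421977_at), had its lowest mean in Ep300+/- stroma. Its level was 8.03, 8.15, 7.36 and 8.23 on the Crebbp+/- arrays, 7.57, 7.60, 7.05 and 7.86 on the Ep300+/- arrays, and 8.31, 9.07, 7.74 and 8.08 on the wild-type arrays. Only Ep300+/- 4 overlapped the wild-type range. The difference between Ep300+/- and wild-type stroma was -0.78 (SE 0.33) and did not pass (limma, adjusted p = 0.965; exact p = 0.0571), and that between Crebbp+/- and wild-type stroma was -0.36 (adjusted p = 0.502).

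**Figure D2:**
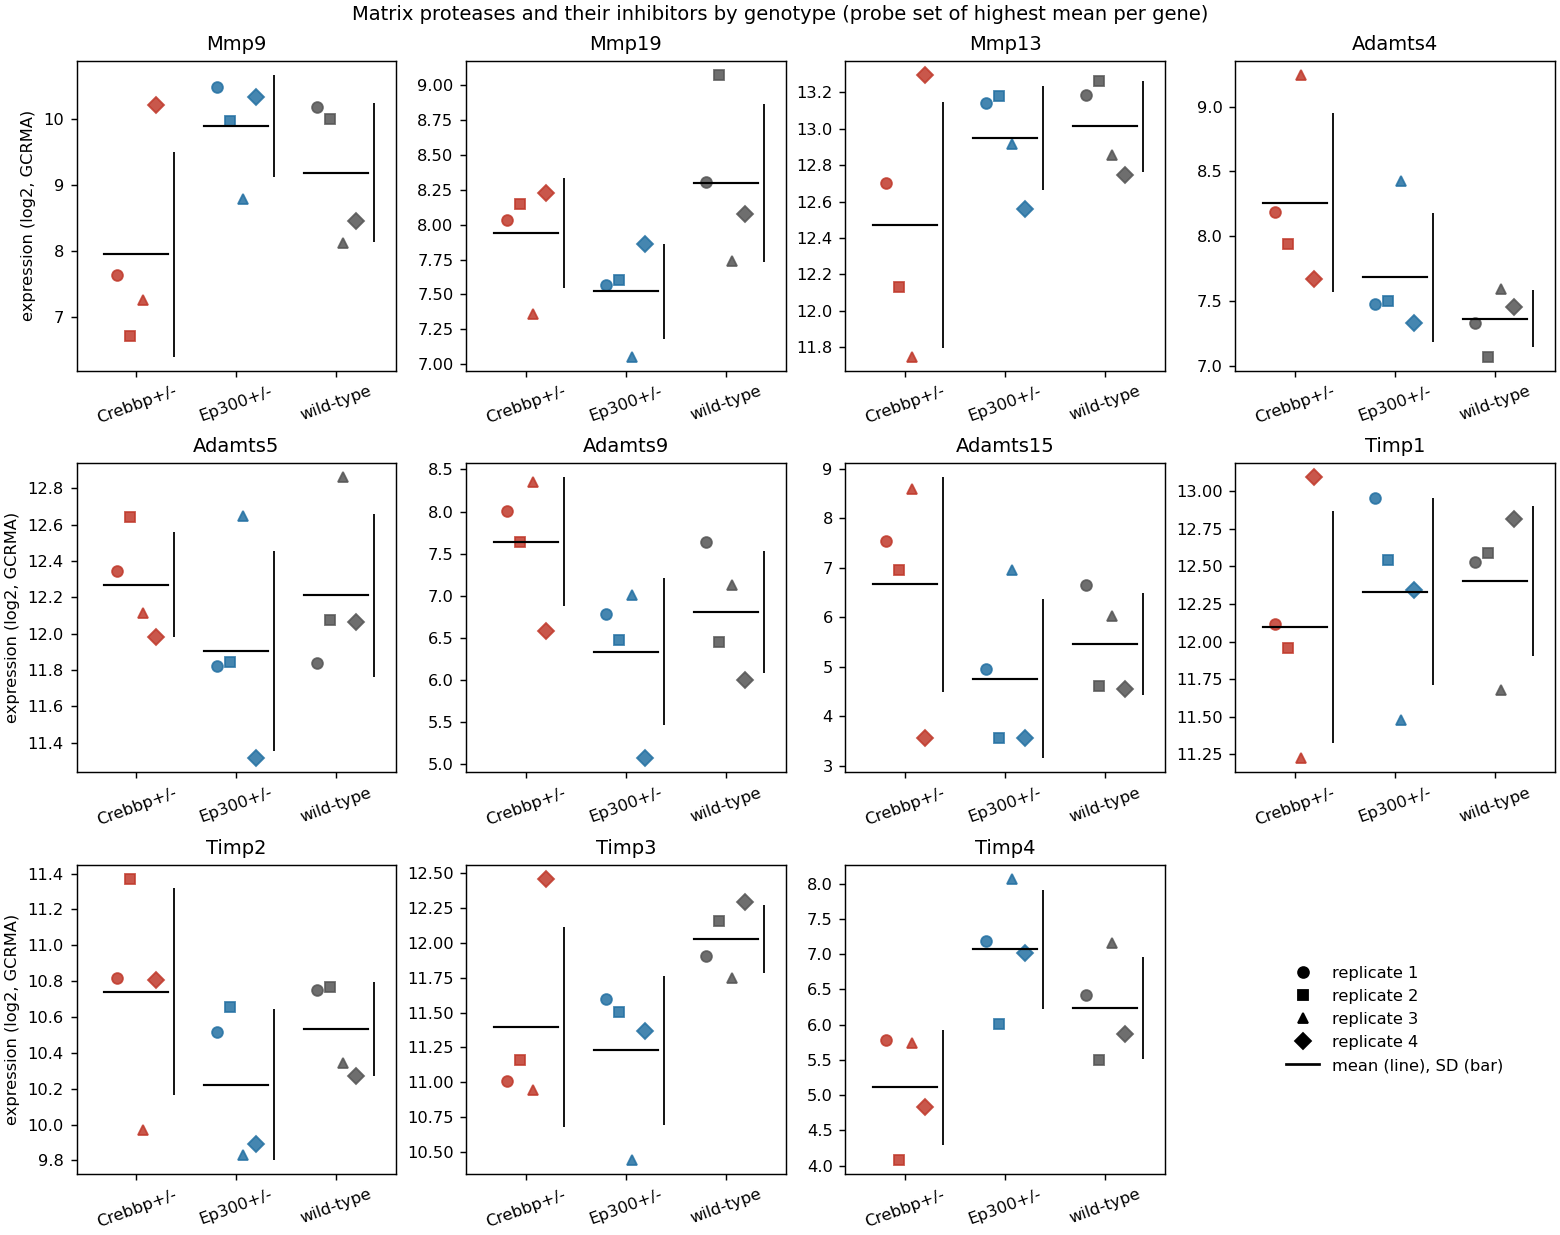
Log2 expression level of each Mmp, Adamts and Timp gene on each array (points; shape gives the replicate number), by its probe set of highest mean and by genotype in the order Crebbp+/-, Ep300+/- and wild-type, with the mean (line) and SD (bar). Crebbp+/- 4 stands at 10.20 for Mmp9 where Crebbp+/- 1 to 3 lie between 6.70 and 7.63, and the 4 Crebbp+/- arrays lie below the 4 Ep300+/- arrays for Timp4.

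Mmp13, the main collagenase of mouse osteoblasts and hypertrophic cartilage (chromosome 9, probe set 1417256_at), had levels of 12.70, 12.13, 11.75 and 13.29 on the Crebbp+/- arrays, 13.14, 13.18, 12.92 and 12.56 on the Ep300+/- arrays, and 13.19, 13.26, 12.85 and 12.75 on the wild-type arrays. As with Mmp9, the 3 arrays Crebbp+/- 1 to 3 were lowest among the wild-type and Crebbp+/- arrays, and Crebbp+/- 4 was the highest of all 12. The difference between Crebbp+/- and wild-type stroma was -0.54 (95% confidence interval -1.25 to 0.17) and did not pass (limma, adjusted p = 0.299); with 1 array left out it lay between -0.82 and -0.30. All 3 measured osteoblast markers, of 9 listed, were also lower on average in Crebbp+/- than in wild-type stroma: the bone sialoprotein Ibsp fell by 1.75 (limma, adjusted p = 0.0293), while Alpl, alkaline phosphatase, differed by -1.03 and the parathyroid hormone receptor Pth1r by -0.66 without passing (adjusted p = 0.0944 and 0.121). Relative to the wild-type mean, the 3 markers averaged -1.33, -1.43, -0.80 and -1.01 on Crebbp+/- arrays 1 to 4. They were thus low on Crebbp+/- 4 as well, where Mmp13 was highest. Their part in the Mmp13 levels was not tested. Between Ep300+/- and wild-type stroma Mmp13 differed by -0.06.

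Adamts4, Adamts9 and Adamts15 had their highest means in Crebbp+/- stroma. Adamts4, an aggrecan- and versican-cutting enzyme that inflammatory cytokines induce in cartilage (chromosome 1), was higher on every Crebbp+/- array than on every wild-type array by both its probe sets. By 1455965_at its level was 6.88, 6.40, 8.29 and 5.91 on the Crebbp+/- arrays, 5.42, 5.73, 7.29 and 5.30 on the Ep300+/- arrays, and 5.04, 5.05, 5.65 and 4.42 on the wild-type arrays. Crebbp+/- 3 and Ep300+/- 3, the arrays with the highest Tnf, were also the highest for Adamts4 and for the cytokine Il1b, at 13.83 and 13.94 against at most 10.76 on the other 10 arrays. Ep300+/- 2 was next for both cytokines, with Tnf at 12.29 and Il1b at 10.76. Its Adamts4 level of 5.73 lay below every Crebbp+/- array. The part of these cytokines in the Adamts4 levels was not tested. For Adamts4 the Crebbp+/- and Ep300+/- groups overlapped. By 1455965_at all 4 wild-type values of Adamts4 lay below the fifth percentile of the table at 5.84. That probe set reached the bound of 6.64 on 2 Crebbp+/-, 1 Ep300+/- and 0 wild-type arrays. It thus entered the table through the genotypes in which it was high, and the difference is measured against a low signal. The difference between Crebbp+/- and wild-type stroma was 1.83 (SE 0.54, 95% confidence interval 0.66 to 3.00) and did not pass (limma, adjusted p = 0.0644; exact p = 0.0286, the smallest that 4 against 4 arrays allow). All 4 Crebbp+/- arrays lay above all 4 wild-type arrays for 10.4% of all probe sets. With replicate number blocked, the adjusted p was 0.00591, and the same-numbered differences were 1.84, 1.35, 2.64 and 1.49. It did not pass in 10 of the 12 fits that left out 1 array (limma, adjusted p up to 0.19), nor under quantile normalization (0.0819), and it passed without Crebbp+/- 4 or without Ep300+/- 3 (0.0291 and 0.0308). Without Crebbp+/- 3 the difference was 1.35 (adjusted p = 0.129), and without Ep300+/- 3 as well, a pair chosen after seeing the data, the same 1.35 had an adjusted p of 0.0489. By 1452595_at the means were 8.26 ± 0.69 in Crebbp+/-, 7.68 ± 0.50 in Ep300+/- and 7.36 ± 0.22 in wild-type stroma (SD, n = 4 each). The difference between Crebbp+/- and wild-type stroma was 0.90 (SE 0.36) by that probe set (limma, adjusted p = 0.137; 0.024 with the block). Between Ep300+/- and wild-type stroma, Adamts4 differed by 0.90 and 0.32 by the 2 probe sets, and neither passed (adjusted p = 0.965 for both).

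**Figure D3:**
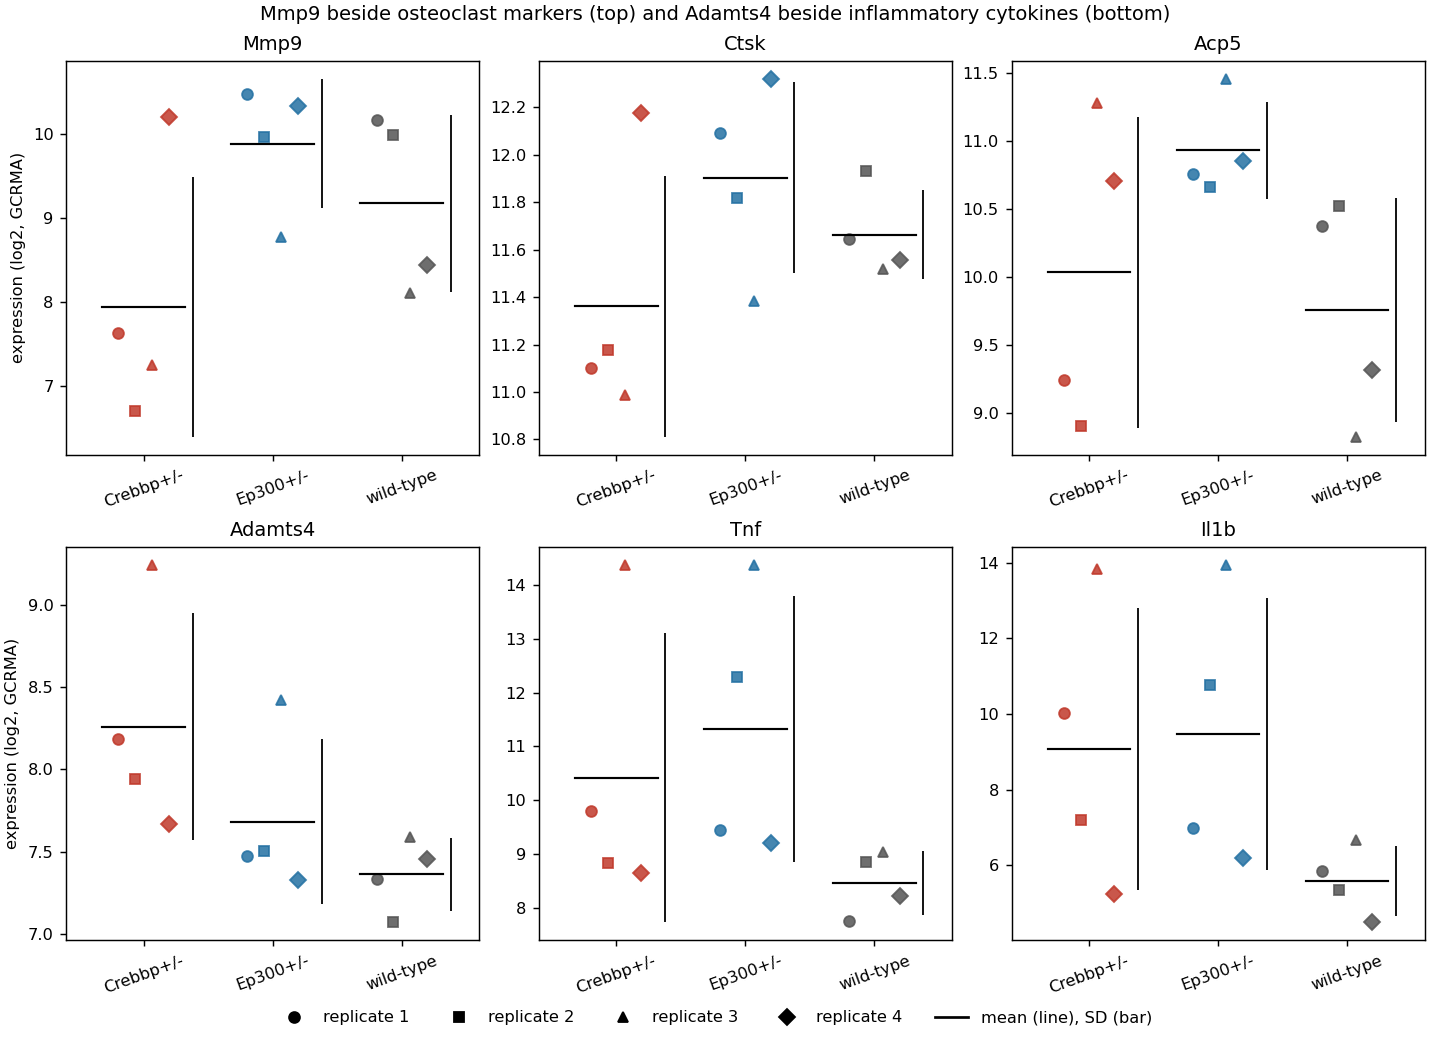
Log2 level of Mmp9 beside the osteoclast genes Ctsk and Acp5 (top) and of Adamts4 beside the cytokines Tnf and Il1b (bottom) on each array, by genotype in the order Crebbp+/-, Ep300+/- and wild-type, with the mean (line) and SD (bar) of 4 arrays. Ctsk shares the low values of Mmp9 on Crebbp+/- 1 to 3, while Acp5 is high on Crebbp+/- 3, at 11.28. Itgb3, the other measured osteoclast marker, is not shown and was 1.99 higher in Crebbp+/- than in Ep300+/- stroma. Crebbp+/- 3 and Ep300+/- 3 are highest for Adamts4, Tnf and Il1b, and Ep300+/- 2 is next for Tnf and Il1b but not for Adamts4.

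Adamts9, a versican- and aggrecan-cutting enzyme (chromosome 6, probe set 1437785_at), was at 8.01, 7.63, 8.35 and 6.58 on the Crebbp+/- arrays, 6.79, 6.47, 7.01 and 5.07 on the Ep300+/- arrays, and 7.64, 6.45, 7.13 and 5.99 on the wild-type arrays. In each genotype array 4 was the lowest, and the groups overlapped. Within each replicate number, however, Crebbp+/- stroma was above both others. The differences from wild-type stroma were 0.37, 1.18, 1.22 and 0.58, and those from Ep300+/- stroma were 1.23, 1.16, 1.34 and 1.51. Without the block the means differed by 0.84 (SE 0.51) from wild-type and 1.31 (SE 0.51) from Ep300+/- stroma, and neither passed (limma, adjusted p = 0.302 and 0.132). With the block both passed (adjusted p = 0.0244 and 0.00632).

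Adamts15, another enzyme of the proteoglycan-cutting group (chromosome 9, probe set 1427056_at), spread widely within genotypes. Its level was 7.55, 6.96, 8.58 and 3.57 on the Crebbp+/- arrays, 4.95, 3.56, 6.96 and 3.56 on the Ep300+/- arrays, and 6.64, 4.62, 6.02 and 4.55 on the wild-type arrays. Crebbp+/- 4 sat at the same low level as Ep300+/- 2 and Ep300+/- 4, all 3 below the fifth percentile of the table at 5.84. Adamts15 reached 6.64 on 3 Crebbp+/-, 1 Ep300+/- and 0 wild-type arrays, so it entered the table mainly through the genotype in which it was high. The difference between Crebbp+/- and Ep300+/- stroma was 1.91 (SE 1.01) and did not pass (limma, adjusted p = 0.268; 0.0422 with the block). In the 12 fits that left out 1 array it lay between 1.27 and 2.94, with adjusted p up to 0.529, and it passed in 1 of them, that without Crebbp+/- 4 (2.94, adjusted p = 0.0391). With the Eif2s3y level as a covariate it was 0.58 (adjusted p = 0.873). Adamts5, the main aggrecan-cutting enzyme of mouse cartilage (chromosome 16, probe set 1422561_at), ranged from 11.98 to 12.64 in Crebbp+/-, 11.31 to 12.64 in Ep300+/- and 11.84 to 12.86 in wild-type stroma. Its difference between Crebbp+/- and wild-type stroma was 0.06 (95% confidence interval -0.65 to 0.76), and its sign turned under quantile normalization, at -0.27. Its 3 probe sets followed one another with r between 0.925 and 0.979.

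**Figure D4:**
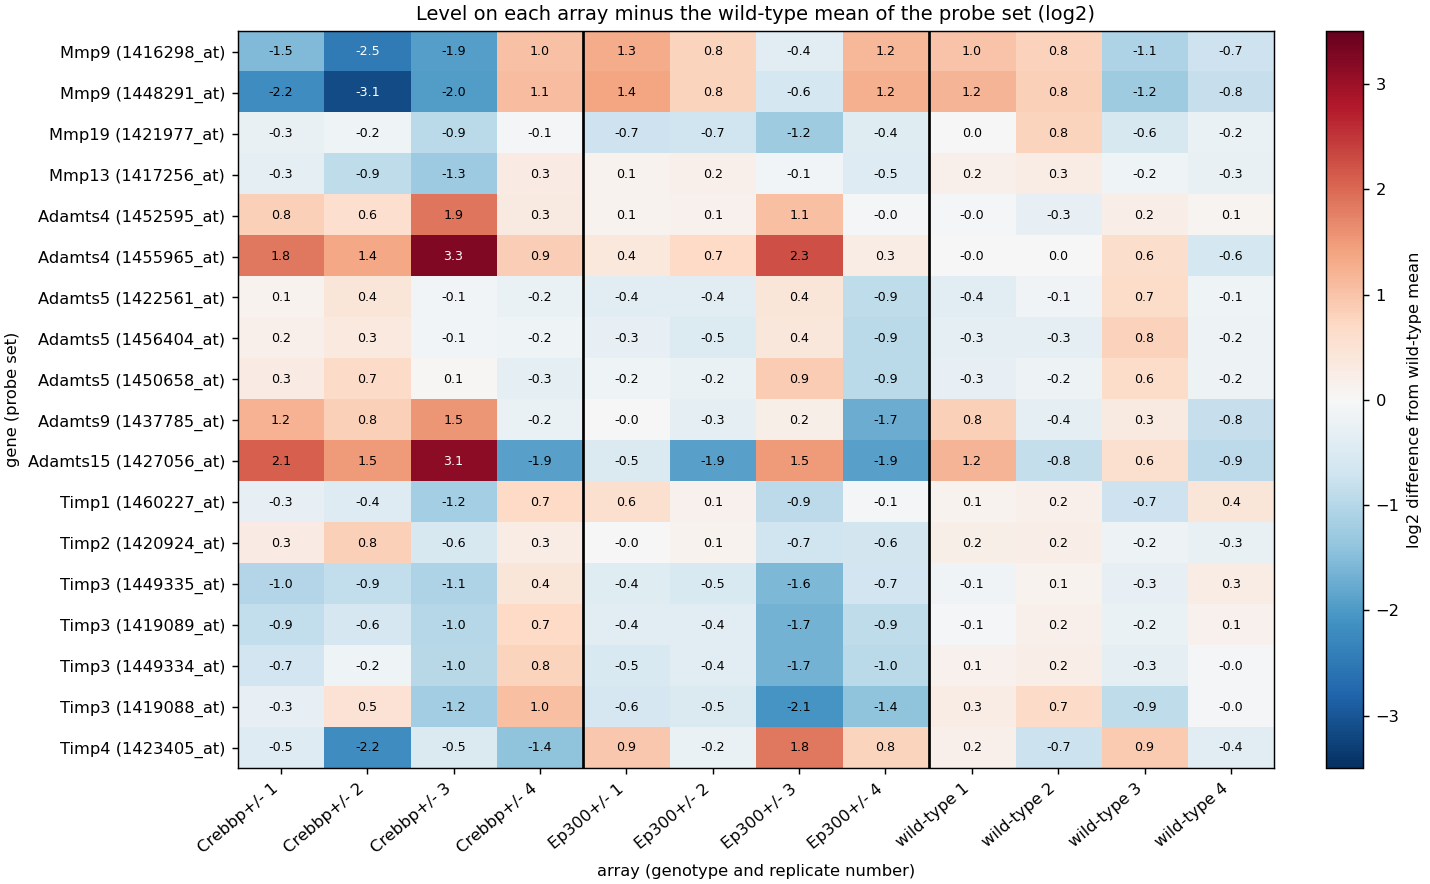
Log2 level on each of the 12 arrays (columns: Crebbp+/-, Ep300+/- and wild-type, 1 to 4 each) minus the wild-type mean of the same probe set, for all 18 probe sets (rows), with red above and blue below that mean. On Crebbp+/- 1 to 3 both Mmp9 rows are blue and the Adamts4, Adamts9 and Adamts15 rows red, and on Crebbp+/- 4 the Mmp9 rows are red and Adamts15 blue.

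Set side by side by cell type, the mean of the macrophage or osteoclast type enzymes was below, and that of the stromal type enzymes above, the wild-type mean on 3 of the 4 Crebbp+/- arrays. For Mmp9 and Mmp19 together, 2 of the 5 such genes listed, the mean relative to wild-type stroma was -0.91, -1.31, -1.43 and 0.47 on the Crebbp+/- arrays, 0.28, 0.04, -0.82 and 0.36 on the Ep300+/- arrays, and 0.50, 0.79, -0.81 and -0.48 on the wild-type arrays. For Mmp13, Adamts4, Adamts5, Adamts9 and Adamts15, 5 of the 29 listed, it was 0.79, 0.49, 1.04 and -0.35 on the Crebbp+/- arrays, -0.14, -0.46, 0.62 and -1.004 on the Ep300+/- arrays, and 0.36, -0.27, 0.32 and -0.41 on the wild-type arrays. On Crebbp+/- 4 both signs were the opposite of those on the other 3 Crebbp+/- arrays. Crebbp+/- 4 was the only Crebbp+/- array to overlap the wild-type arrays in either mean. In the second mean its sign came mainly from Adamts15, at 3.57 there against a wild-type mean of 5.46. On that array Mmp13 and Adamts4 lay above their wild-type means, and Adamts5 and Adamts9 below. The second mean was not computed without Adamts15, so the overlap of the other stromal type enzymes cannot be assigned to that array. The split is not complete by gene: Mmp9 carries the first mean, with Mmp19 at -0.36 in Crebbp+/- against wild-type stroma, and Adamts4, Adamts9 and Adamts15 carry the second. Adamts15 reached the bound of 6.64 on 3 Crebbp+/-, 1 Ep300+/- and 0 wild-type arrays. The table's filter thus favoured a high Crebbp+/- level of Adamts15, and its share of the second mean is no separate evidence. Adamts5 differed by 0.06 (-0.27 under quantile normalization), and Mmp13, also of the stromal type, had its lowest mean in Crebbp+/- stroma. Marker lists also differed over the same arrays: relative to the wild-type mean, the 13 measured endothelial markers averaged 2.46, 2.12, 2.38 and 0.52 on Crebbp+/- arrays 1 to 4, and the 4 smooth muscle and pericyte markers 1.22, 1.09, 1.14 and 0.77. The 6 fibroblast markers averaged between -0.28 and 0.16 on those arrays. These means rest on few genes, no test was made of them, and the part of cell composition in them was not tested.

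Among the inhibitors, Timp4 fell in Crebbp+/- stroma relative to Ep300+/- stroma. Timp4, the TIMP with the most restricted tissue range, best known from heart and fat (chromosome 6, probe set 1423405_at), was at 5.78, 4.08, 5.74 and 4.83 on the Crebbp+/- arrays, 7.18, 6.01, 8.07 and 7.02 on the Ep300+/- arrays, and 6.43, 5.50, 7.16 and 5.87 on the wild-type arrays. All 4 Crebbp+/- arrays lay below all 4 Ep300+/- arrays, and the wild-type arrays lay between with overlap on both sides. The means were 5.11 ± 0.82 in Crebbp+/-, 7.07 ± 0.85 in Ep300+/- and 6.24 ± 0.72 in wild-type stroma (SD, n = 4 each). Relative to Ep300+/- stroma, Crebbp+/- stroma had a log2 fold change of -1.96 (SE 0.51, 95% confidence interval -3.07 to -0.86; limma, adjusted p = 0.0382; exact p = 0.0286). All 4 arrays lay below all 4 for 4.34% of all probe sets. Against wild-type stroma Crebbp+/- stroma differed by -1.13 (SE 0.51) and did not pass (limma, adjusted p = 0.178; 0.0092 with the block), although it was lower within each of the 4 replicate numbers, by -0.64, -1.42, -1.42 and -1.04. Ep300+/- stroma was 0.83 from wild-type stroma (adjusted p = 0.965).

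The Timp4 call is a marginal one. It was kept in 4 of the 12 fits that left out 1 array, with the log2 fold change between -2.32 and -1.62 and the adjusted p between 0.0381 and 0.125. It was kept without wild-type 2 or 3, Crebbp+/- 3 or Ep300+/- 2, and lost without wild-type 1 (adjusted p = 0.051) or 4 (0.0571), Crebbp+/- 1 (0.0841), 2 (0.125) or 4 (0.055), or Ep300+/- 1 (0.101), 3 (0.0644) or 4 (0.0876). With the Eif2s3y level as a covariate the log2 fold change was -2.48 and the call was lost (limma, adjusted p = 0.177). No probe set of the whole table passed in that fit, so this loss is not particular to Timp4. The call was also lost under quantile normalization (adjusted p = 0.0567), in a fit of those 2 genotypes alone (0.0833), without Crebbp+/- 4 and Ep300+/- 3 (0.0712) and without Crebbp+/- 3 and Ep300+/- 3 (0.0659). It was kept with replicate number blocked (0.00321), under median centring (0.0311), with a variance trend and robust variances (0.0468) and with array weights (0.0492), where the log2 fold change was -0.96. Timp4 reached 6.64 on 4 arrays, 3 of them Ep300+/-, 1 wild-type and 0 Crebbp+/-, so it entered the table through the genotype in which it was high. All 4 Crebbp+/- values lay below the fifth percentile of the table at 5.84, so the difference is measured against a low signal.

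Timp3, the TIMP that binds to the matrix and also inhibits ADAMTS enzymes and ADAM17 (chromosome 10), was represented by 4 probe sets. By 1449335_at its level was 11.01, 11.16, 10.94 and 12.46 on the Crebbp+/- arrays, 11.60, 11.51, 10.44 and 11.37 on the Ep300+/- arrays, and 11.91, 12.16, 11.75 and 12.29 on the wild-type arrays. All 4 Ep300+/- arrays lay below all 4 wild-type arrays, as did 3 of the 4 Crebbp+/- arrays. Ep300+/- stroma differed from wild-type stroma by -0.80 (SE 0.37), which did not pass (limma, adjusted p = 0.965; exact p = 0.0286). The other probe sets gave -0.83 (1419089_at), -0.88 (1449334_at) and -1.15 (1419088_at) in that comparison, and none passed. By 3 of the 4 probe sets the Ep300+/- arrays lay below every wild-type array, against 2.16% of all probe sets. The 4 probe sets measure 1 gene on the same arrays (r from 0.73 to 0.971) and do not count as separate evidence. Ep300+/- 3 was the lowest Ep300+/- array, and without it the difference by 1449335_at was -0.54. In Crebbp+/- stroma the probe sets differed among themselves: the difference from wild-type stroma was -0.63 by 1449335_at and 0.02 by 1419088_at (-0.16 under quantile normalization), and neither passed (limma, adjusted p = 0.285 and 0.982). Crebbp+/- 4 stood far above the other Crebbp+/- arrays by 1449335_at, and without it that difference was -0.99 (adjusted p = 0.0569). It passed without Crebbp+/- 4 and Ep300+/- 3, a choice made after seeing the data (adjusted p = 0.012), and with array weights (-1.04, adjusted p = 0.00202).

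Timp1, an inhibitor of most soluble metalloproteinases and a partner of pro-Mmp9 (chromosome X, probe set 1460227_at), ranged from 11.22 to 13.09 in Crebbp+/-, 11.48 to 12.95 in Ep300+/- and 11.68 to 12.81 in wild-type stroma. Timp2, which takes part in the activation of pro-Mmp2 at the cell surface as well as inhibiting (chromosome 11, probe set 1420924_at), ranged from 9.97 to 11.37 in Crebbp+/-, 9.83 to 10.65 in Ep300+/- and 10.27 to 10.77 in wild-type stroma. The groups overlapped in every comparison of these genes. For Timp1 the difference was -0.30 (95% confidence interval -1.22 to 0.62) in Crebbp+/- against wild-type stroma and -0.07 (-0.99 to 0.85) in Ep300+/- against wild-type stroma. For Timp2 it was 0.21 (-0.50 to 0.91) and -0.31 (-1.01 to 0.39) in the same comparisons, and the first of these turned to -0.07 under quantile normalization.

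Promoter sequences of 6 of the 11 genes were taken from RefSeq on mouse build GRCm38.p6, as windows of 250 bases before to 50 bases after the annotated start. Those of Adamts9, Timp4 and Mmp13 are shown because Adamts9 and Timp4 differed in opposite directions, in Crebbp+/- against either other genotype, within every replicate number, and because Mmp13 has the AP-1 element for which its promoter is known. Each is written 5′ to 3′ on the strand of the gene, with the letters of a motif in capitals. The Adamts9 window is chr6:92943485-92943784 on the minus strand, the Timp4 window chr6:115252156-115252455 on the minus strand, and the Mmp13 window chr9:7272264-7272563 on the plus strand.
Adamts9: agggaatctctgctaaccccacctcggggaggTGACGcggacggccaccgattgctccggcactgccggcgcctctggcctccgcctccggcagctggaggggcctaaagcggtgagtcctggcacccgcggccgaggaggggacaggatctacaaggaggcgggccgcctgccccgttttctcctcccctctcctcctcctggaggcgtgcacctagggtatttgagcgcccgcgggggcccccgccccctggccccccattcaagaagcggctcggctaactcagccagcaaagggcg
Timp4: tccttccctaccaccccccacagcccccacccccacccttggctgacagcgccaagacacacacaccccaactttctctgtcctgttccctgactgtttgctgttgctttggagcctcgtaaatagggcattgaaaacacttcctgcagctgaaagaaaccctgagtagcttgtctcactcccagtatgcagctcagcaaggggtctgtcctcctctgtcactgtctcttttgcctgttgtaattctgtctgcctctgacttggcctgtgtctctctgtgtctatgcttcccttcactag
Mmp13: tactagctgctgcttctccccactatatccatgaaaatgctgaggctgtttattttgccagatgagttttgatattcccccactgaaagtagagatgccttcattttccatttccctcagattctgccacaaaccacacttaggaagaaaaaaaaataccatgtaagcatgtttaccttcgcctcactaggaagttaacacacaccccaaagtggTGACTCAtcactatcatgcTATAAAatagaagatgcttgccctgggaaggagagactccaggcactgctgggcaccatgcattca
The motifs searched on both strands were the AP-1 element TGANTCA, the NF-kB element, the core of the cAMP response element TGACG, through which CREB recruits CREB-binding protein, and the TATA box TATAAA. The Adamts9 window holds TGACG at position 33 and the Mmp13 window TGACTCA at position 216 and TATAAA at position 235, counted from 1 at the 5′ end. The Timp4 window holds none of the 4. Of 32851 mouse promoter windows of the same length, 20.8% hold TGACG, 7.81% TGANTCA, 13.6% TATAAA and 0.411% the NF-kB element. Among the other 3 windows, Timp1 holds TGACG at position 167, and Timp2 and Timp3 hold none. A match describes these letters and is not a sign of binding.

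Other genes of proteolysis at the cell surface and in the matrix were taken from a list of 42, of which 12 had a probe set. In Crebbp+/- against wild-type stroma 0 of the 12 passed in the higher and 1 in the lower direction, against 5.02% and 1.16% of all probe sets. The 1 was Adamtsl5, an ADAMTS-like protein without a protease domain, which fell by 1.18 (SE 0.26; limma, adjusted p = 0.0244; exact p = 0.0286). With replicate number blocked 3 passed, Adamtsl5, the membrane protease Adam12 (0.81; adjusted p = 0.0156) and Lrp1, an endocytic receptor that clears several metalloproteinases (-0.65; adjusted p = 0.0323), a share near the 26.1% of all probe sets that passed with the block. In Ep300+/- against wild-type stroma none of the 12 passed, against 0.0% of all. Adam19 and Bmp1 (Bmp1 is the procollagen C-proteinase) differed by -0.64 and -0.50 there without overlap between the groups (limma, adjusted p = 0.841 and 0.965; exact p = 0.0286 for each), where 2.16% of all probe sets lay below without overlap. Adam19 was also below every wild-type array on all 4 Crebbp+/- arrays, where 8.46% of all probe sets lay below in that way. Its difference there was -0.46 and did not pass (limma, adjusted p = 0.195, exact permutation p = 0.0286). In Crebbp+/- against Ep300+/- stroma none of the 12 passed, against 6.4% of all probe sets, and 5 passed with the block, against 24.4% of all. Among these 5, Bmp1 differed by 0.80 (adjusted p = 0.0505; 0.0208 with the block) and Fap, the fibroblast activation protease, by 0.67.

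Over the 12 arrays, the genes whose levels followed Mmp9 (1416298_at) most closely were Ctsk (r = 0.902), Gm41724 (r = 0.873) and Slc7a8, an amino acid transporter (r = 0.868). Those that followed Timp4 most closely were Ahcyl2 (r = 0.882), Ecrg4 (r = 0.843) and Igsf8 (r = 0.829). These are the highest 3 of all genes in the table for each, picked for that reason, over arrays that share genotypes and culture, and are given as a description.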

How the data were processed

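RNA from 12 cultures of irradiated stroma was hybridised to 1 Affymetrix array each. The deposited values are log2 levels that the authors obtained by GCRMA according to the submitters' processing notes; the sources used here give neither its version nor the filter's rule, which was read from the values. Nothing was renormalized for the main values. Genes were named through the platform annotation, leaving out probe sets with several symbols. One limma 3.58.1 model (R 4.3.3) with the 3 genotypes as groups was fitted to all 3109 probe sets and 12 arrays with empirical Bayes variances, two-sided, with Benjamini-Hochberg adjustment over all probe sets, and a call is an adjusted p under 0.05. Single probe sets were also tested by exact permutation of 4 against 4 arrays, 70 regroupings, two-sided, for which the smallest p is 0.0286. The script was tested on simulated data.

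Replicate numbers come from the labels. Deviations from the group means of same-numbered arrays correlated at 0.448 to 0.603 between Crebbp+/- and wild-type and at 0.294 to 0.513 between Crebbp+/- and Ep300+/- stroma, so these comparisons were treated as paired in an alternative fit. Arrays of different number correlated at -0.571 to 0.587 and at -0.698 to 0.517 in these comparisons, so some matched as closely as same-numbered arrays. The labels state no pairing, and results with the block rest on that assumption. Between Ep300+/- and wild-type stroma same-numbered arrays correlated at 0.059 to 0.683. The alternative fit blocked replicate number in that comparison too, and its counts are given with the others. Same-numbered differences are not given for that comparison.

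The genes named are all measured genes of the family, Crebbp, the 3 genes most like Mmp9 and any called member (Timp4), and listed genes that passed or were among the 4 of smallest p. Acp5, Ctsk, Itgb3, the macrophage markers, Tnf, Il1b and Eif2s3y were added after their values were seen. These genes, the lists and the comparisons were chosen with earlier results of these data known. Alternatives were quantile normalization, median centring, trended and robust variances, a mean of at least log2(100), array weights, the replicate block, the groups of a comparison alone and leaving out each array. The number of arrays limits the precision.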

Additional observations from a re-analysis of the deposited data

Results flagged for a closer look

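Within the genotypes 54 groups of 4 arrays were searched for an array far from the other 3 (Dixon's test), and 4 were found. Chance gives such an array in about 1 in 20 groups. For Adamts4 (1452595_at), Ep300+/- 3 was at 8.42, against 7.33 to 7.50 on the other Ep300+/- arrays. For Timp3 (1449335_at), Crebbp+/- 4 was at 12.46, against 10.94 to 11.16 on the other Crebbp+/- arrays. For Adamts5, wild-type 3 was at 9.02 by 1450658_at, against 8.09 to 8.22 on the other wild-type arrays, and at 12.53 by 1456404_at, against 11.39 to 11.55. The probe sets of Adamts5 measure 1 gene on the same array. The causes were not tested.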

How the results depend on the processing

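In Crebbp+/- against wild-type stroma 192 of all probe sets passed, and 5 to 383 when 1 array was left out, 812 with the replicate block, 1425 with array weights, 744 without Crebbp+/- 4 and Ep300+/- 3 together, and 0 with the Eif2s3y level as covariate (limma, adjusted p under 0.05). Of the family 0 passed, and 0 to 3 with 1 array left out, 4 with the block, 9 with weights, 7 without Crebbp+/- 4 and Ep300+/- 3, and 1 without Crebbp+/- 3 and Ep300+/- 3. In Ep300+/- against wild-type stroma 0 of all passed, 0 to 1 with 1 array left out, 1 with the block and 18 with weights. In Crebbp+/- against Ep300+/- stroma 199 passed, 2 to 374 with 1 array left out, 51 with those genotypes alone, 760 with the block, 1533 with weights, 775 and 122 without the 2 pairs of arrays just named, and 0 with the covariate. Of the family 1 passed, 0 to 3 with 1 array left out, 5 with the block, 11 with weights, 6 and 0 without those pairs, and 0 under quantile normalization, the mean filter (which leaves Timp4 out), the genotypes alone or the covariate. The 3 settings that leave out 2 arrays or add the covariate were chosen after seeing the data, and the estimate of the array weights stopped before it met its convergence tolerance.

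Of 42 single log2 fold changes, 17 kept their sign and their side of the threshold throughout, and 8 turned sign somewhere, none of them called. In Crebbp+/- against wild-type stroma these were Adamts15 (-0.30 with the covariate), Adamts5 (-0.27 under quantile normalization, -0.14 under median centring, -0.066 to 0.28 with 1 array left out), Timp1 (0.095 with the covariate) and Timp2 (-0.071 under quantile normalization, -0.0035 to 0.46 with 1 array left out). In Ep300+/- against wild-type stroma these were Mmp13 (0.034 with weights, -0.15 to 0.065 with 1 array left out) and Timp1 (0.082 with weights, -0.31 to 0.21 with 1 array left out, 0.21 without either pair of arrays). In Crebbp+/- against Ep300+/- stroma these were Timp1 (-0.56 to 0.0605 with 1 array left out, 0.12 with the covariate) and Timp3 by 1449335_at (-0.41 with weights, -0.19 to 0.32 with 1 array left out, -0.45 without Crebbp+/- 4 and Ep300+/- 3). The cause was not tested.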
